A study of Mus musculus with 2 samples.

Results

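The oxygen-sensing system of the cell was followed through 9 transcripts, out of 31053 genes in the deposited tables, in the newborn mouse heart. They encode the HIF alpha subunits (Hif1a, Epas1 and Hif3a), their shared beta subunit (Arnt), the 3 prolyl hydroxylases (Egln1, Egln2 and Egln3), the asparaginyl hydroxylase Hif1an and the ubiquitin ligase subunit Vhl. The genes were chosen by name, with earlier results of these data known. Live cells had been sorted from hearts at postnatal day 1 (P1) and postnatal day 7 (P7) and profiled by droplet single-cell RNA-seq, which counts transcript molecules as UMIs at their 3′ ends. Each age was 1 library made from 3 pooled hearts of one litter, so cells were not replicates, no test between ages or classes was possible, and every interval below is a 95% interval for counting error alone. The labels give age and tissue, with no treatment, strain, genotype or sex. P1 tissue was digested for 20 min and P7 tissue for 45 min.

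With oxygen present, EGLN enzymes hydroxylate prolines of the HIF alpha subunits, VHL binds the hydroxylated form and the subunit is degraded. HIF1AN blocks coactivator binding by hydroxylating an asparagine. When oxygen falls, these reactions slow, and an alpha subunit pairs with ARNT at target promoters. Control of the alpha subunits is thus largely exerted on the protein, so a transcript level is not a measure of HIF activity. Hif1a is broadly transcribed, Epas1 (encoding HIF-2α) is best known from endothelium, and Egln3 and Hif3a are themselves known HIF-inducible genes.

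After cells with 200 to 8000 genes and at most 20% mitochondrial UMIs were retained, 4991 cells were left at P1 and 8511 at P7, with medians of 10875 and 10104 UMIs. Below 200 genes lay 2253 barcodes at P1 and 160 at P7. Xist was detected in 4447 P1 cells but 11 P7 cells, and Y-linked genes in 2 and 6509, so age cannot be told apart from sex, litter or digestion time. Cells with a UMI of a lung gene (Sftpc, Ager, Foxf1, Hoxa5 or Tbx4) numbered 1043 at P1 and 331 at P7. The libraries shared 18 barcodes, 13 of them among retained cells. Cells that met more than 1 gate were left out (291 and 614) and 925 and 1029 met none. Cells that met the Ryr2 cardiomyocyte gate numbered 31 and 2, so heart muscle itself is hardly covered.

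Classes were gated on 1 marker gene plus at least 2 supporting markers, none of them a HIF-system gene. At P1 and P7 there were 1675 and 3274 Cdh5+ endothelial-like cells (EC), 1349 and 2452 Pdgfra+ fibroblast-like cells (FB), 125 and 320 Myh11+ smooth muscle-like cells (SMC), 151 and 298 Kcnj8+ pericyte-like cells (PC) and 175 Csf1r+ macrophage-like cells in each library. Markers held back from the gates were higher in these classes than in the other classes together, from 1.88-fold for Tek in EC at P7 upward. A lung-gene UMI was held by 29.8% of PC at P1 and 9.06% at P7, by 23.2% and 4.8% of EC and by 21.6% and 6.25% of SMC. PC values without such cells are not given below. The Ptprc+ Csf1r- gate, meant for lymphoid cells, went against its label at P1. Of its 79 cells there, 69.6% had a UMI of S100a8 and 3.80% one of Cd3e, against 9.56% and 63.2% of the 272 cells at P7. These cells are called Ptprc-gated below. Their values at both ages are given as a description, since the gate held different cells at P1 and P7. Levels are given as CPM, the gene's UMIs per 1000000 UMIs of the class.

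**Figure D1:**
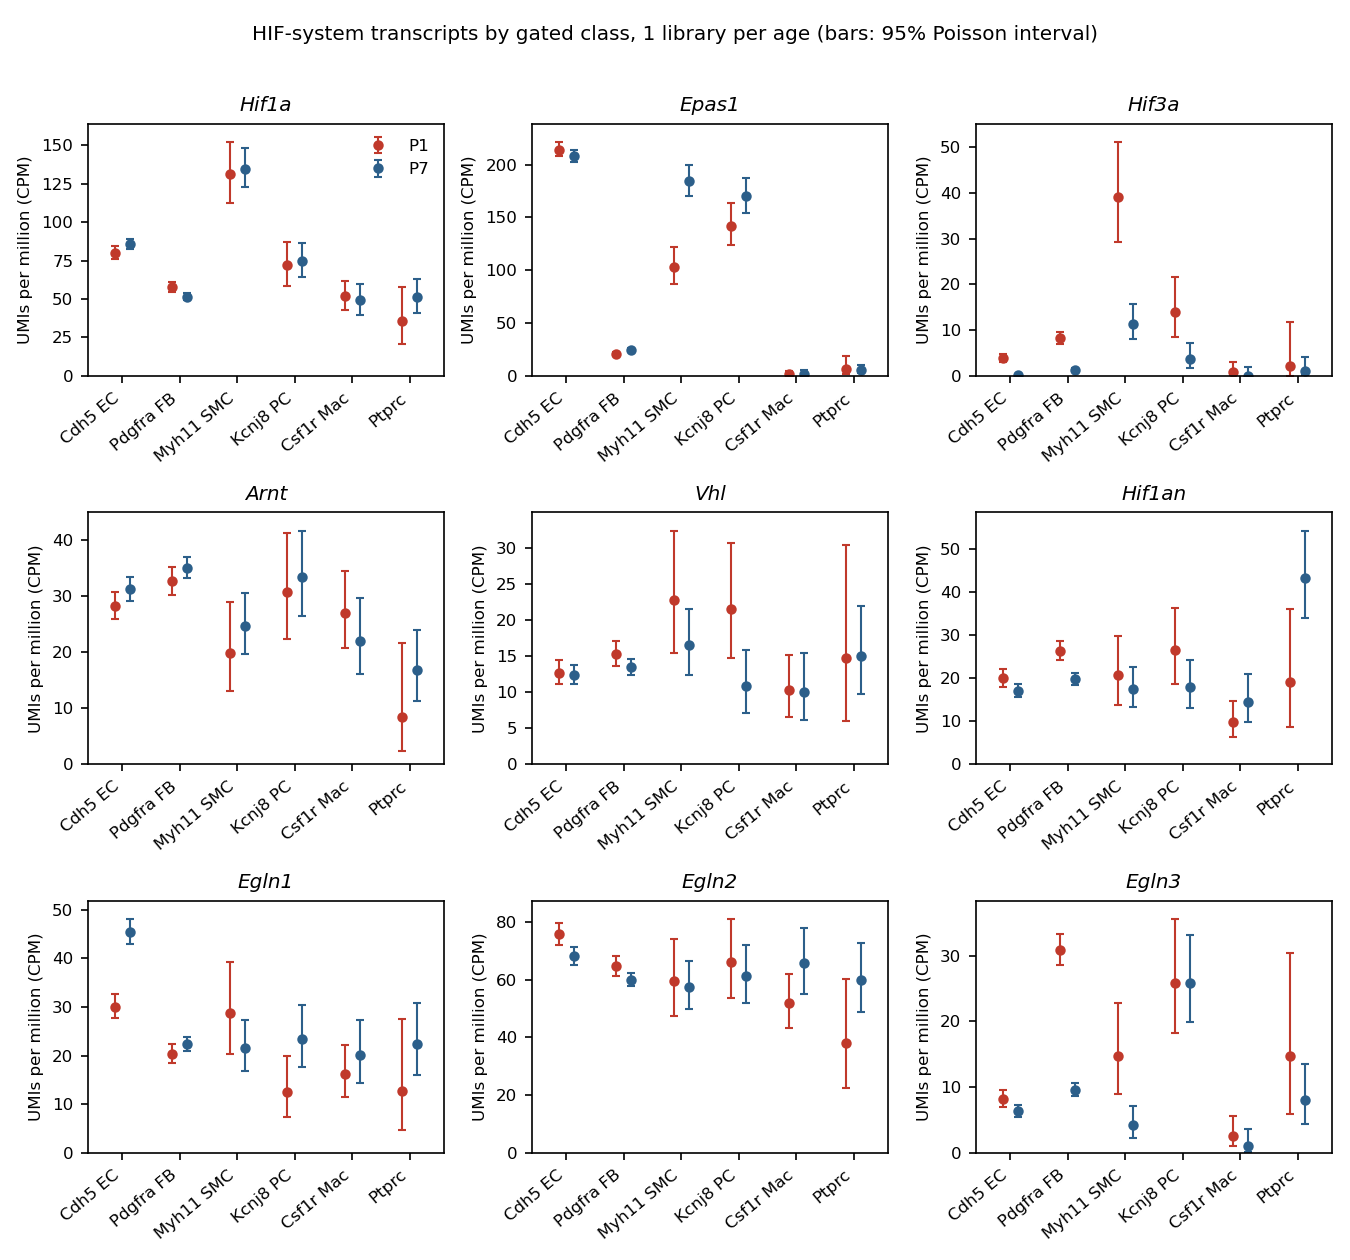
Level of each of the 9 transcripts (y axis, CPM) in 6 gated classes (x axis) at P1 (red) and P7 (blue). Points are single libraries and bars are exact 95% Poisson intervals. Epas1 was high in EC, PC and SMC and near 0 in macrophage-like cells, and Hif3a and Egln3 were higher at P1 in FB and SMC. Egln2 ran from 38.0 CPM in Ptprc-gated cells to 75.8 CPM in EC at P1. At P7 it ran from 57.6 CPM in SMC to 68.2 CPM in EC.

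In the GENCODE M21 annotation (GRCm38), Epas1 spans chr17:86753700-86833410 and Hif1a chr12:73901375-73947530 on the plus strand, and Hif3a spans chr7:17031507-17062427, Egln3 chr12:54178981-54203860 and Egln1 chr8:124908587-124949324 on the minus strand. Hif3a and Egln3 are shown with their upstream sequence because they were the members at least 2-fold apart between the ages in several classes. The 250 bases before the RefSeq start (GRCm38.p6, minus strand, printed 5′ to 3′) are chr7:17062428-17062677 for Hif3a and chr12:54203875-54204124 for Egln3. Capitals mark the core letters of a hypoxia response element, ACGTG or GCGTG, read on either strand.
Hif3a: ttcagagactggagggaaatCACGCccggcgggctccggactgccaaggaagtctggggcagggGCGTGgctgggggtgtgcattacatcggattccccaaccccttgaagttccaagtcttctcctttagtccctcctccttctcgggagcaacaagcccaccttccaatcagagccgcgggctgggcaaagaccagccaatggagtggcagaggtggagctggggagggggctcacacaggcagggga
Egln3: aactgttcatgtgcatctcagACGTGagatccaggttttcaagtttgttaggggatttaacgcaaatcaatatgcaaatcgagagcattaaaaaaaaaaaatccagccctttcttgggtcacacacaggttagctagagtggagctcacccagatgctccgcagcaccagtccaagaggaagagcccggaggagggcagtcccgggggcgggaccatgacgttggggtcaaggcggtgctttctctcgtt
The Hif3a window held 2 cores, 230 and 186 bases before the start, and the Egln3 window held 1, at 229 bases. Among 32851 windows of this length, 38.6% held at least 1 core and 16.7% at least 2, so such letters are common. Of the 9 genes, 8 were in the promoter table. Among the other members, Egln2 held 4 and 1 cores at separate starts, Hif1a 3, Egln1 2, Arnt 1, and Hif1an and Vhl 0. The Hif1a cores at 135 and 134 bases overlapped, being the same stretch CACGTG read on both strands. In the Egln1 window 70 bases were annotated Egln1 exon, and the 180 bases before them held 1 core. The Hif1a window, chr12:73907617-73907866, lay inside the Hif1a span given above. A match describes letters, not binding.

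Epas1 was the member with the widest range between classes. In EC it stood at 214 CPM (208 to 221) at P1 and 208 CPM (203 to 213) at P7. PC followed with 142 CPM (123 to 163) at P1 and 170 CPM (154 to 188) at P7, and SMC with 103 (86.7 to 122) and 184 (170 to 199). FB had 20.5 CPM (18.6 to 22.5) and 24.5 CPM (23.0 to 26.1), and macrophage-like cells 2.13 and 2.00 CPM from 5 and 4 UMIs. EC thus exceeded FB by 10.5-fold (9.48 to 11.6) at P1 and 8.48-fold (7.93 to 9.08) at P7. The order at P1 was EC, PC, SMC, FB, with each neighbour apart beyond counting error. At P7 SMC and PC could not be separated (the fold between them lay from 0.953 to 1.23). EC held 73.2% of all Epas1 UMIs at P1 and 62.2% at P7, while holding 32.3% and 28.5% of all UMIs.

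Detection separated EC from FB and macrophage-like cells in the same way, while at P7 the share was highest in SMC (77.2%). An Epas1 UMI was found in 76.1% (73.9 to 78.1) of EC at P1 and 69.3% (67.7 to 70.9) at P7, where median depth was 10397 and 7566 UMIs per cell. Macrophage-like cells, with medians of 12243 and 10293 UMIs, had one in 2.86% and 2.29%. The Ptprc-gated cells, a background for free RNA with medians of 4821 and 5106 UMIs, had one in 3.80% and 3.31%. With all cells thinned to an equal 2000 UMIs, the shares were 33.7% and 31.7% in EC, 3.53% (2.60 to 4.68) and 4.45% (3.66 to 5.34) in FB, and 1.28% and 1.63% in Ptprc-gated cells. The FB interval overlapped that of the Ptprc-gated cells in both libraries (0.0325 to 6.94 and 0.447 to 4.13), so a low FB share is not clearly above background by this measure. By summed counts, FB exceeded Ptprc-gated cells by 3.23-fold (1.10 to 15.7) at P1 and 4.72-fold (2.48 to 10.4) at P7. The Ptprc-gated sums held 3 and 9 Epas1 UMIs.

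Within EC, Epas1 followed the arterial gate. EC with UMIs of exactly 1 of 4 subset genes were compared: Gja5, an arterial connexin (32 cells at P1 and 138 at P7), Car4, a capillary carbonic anhydrase (186 and 213), Aplnr, the apelin receptor (273 and 1119), and Npr3, a natriuretic peptide receptor of endocardium (212 and 60). Gja5 and Npr3 subsets carried their held-back markers, though not equally at P1 and P7. Over the other subsets, Hapln1 in Npr3+ cells was 1.96-fold and 26.6-fold higher, and Bmx in Gja5+ cells 2.52-fold and 10.3-fold. Whether these 2 gates held the same kinds of cells at both ages was not tested. In the Aplnr subset Plvap was lower than in the other subsets and Nr2f2 similar, and in the Car4 subset at P7 Timp4 was not higher (0.981-fold), so these are called by their gate genes. Epas1 was 540 CPM (473 to 613) and 705 CPM (658 to 755) in Gja5+ cells at P1 and P7, and 301 (275 to 329) and 216 (191 to 242) in Car4+ cells. Aplnr+ cells had 180 CPM (166 to 195) and 161 CPM (153 to 169), and Npr3+ cells 149 (135 to 164) and 131 (106 to 159). Gja5+ cells exceeded Aplnr+ cells by 3.00-fold (2.57 to 3.49) at P1 and 4.39-fold (4.03 to 4.77) at P7.

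**Figure D2:**
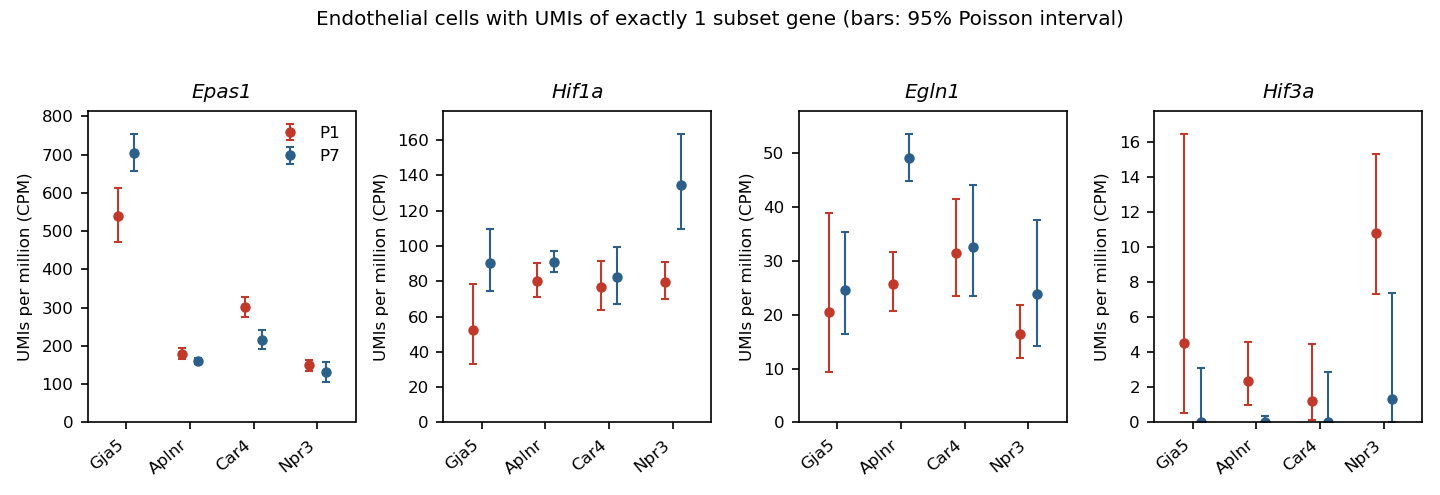
Levels of Epas1, Hif1a, Egln1 and Hif3a (y axes, CPM) in endothelial-like cells with UMIs of exactly 1 of Gja5, Aplnr, Car4 or Npr3 (x axis), at P1 (red) and P7 (blue), with exact 95% Poisson intervals. Epas1 was highest in Gja5+ cells at both ages, and Egln1 was separated between the ages in Aplnr+ cells.

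The ages differed little in EC for Epas1, with a log2 ratio of P1 over P7 of 0.04 (-0.02 to 0.10). SMC had more at P7, with a log2 ratio of -0.83 (-1.11 to -0.57), or 1.78-fold. Gja5+ cells had more at P7, with a log2 ratio of -0.38 (-0.60 to -0.18), or -0.21 (-0.44 to 0.01) without cells holding lung-gene UMIs. Car4+ cells had more at P1 (0.48, 0.27 to 0.70), but 30.7% of them at P1 and 2.35% at P7 held a lung-gene UMI. Without such cells their Epas1 was 263 and 215 CPM, a log2 ratio of 0.29 (0.05 to 0.53). In lymphatic-type EC, with UMIs of at least 2 of Prox1, Lyve1 and Flt4, Epas1 was 223 CPM (192 to 257) in 63 cells at P1 and 120 CPM (93.3 to 152) in 38 cells at P7. Lung-gene UMIs were present in 42.9% and 23.7% of those cells, and their part in the difference was not tested.

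Hif1a varied less. SMC had 131 CPM (113 to 152) at P1 and 135 CPM (123 to 148) at P7. EC had 80.2 CPM (76.2 to 84.3) and 85.7 CPM (82.3 to 89.2), PC 71.8 and 74.8, FB 57.5 and 51.3, and macrophage-like cells 51.6 and 49.1. SMC exceeded EC by 1.63-fold (1.39 to 1.91) at P1 and 1.57-fold (1.42 to 1.74) at P7. Summed over 8 digestion-response genes, among them Fos, Egr1 and Hspa1a, SMC had 7799 and 6392 CPM and EC 1474 and 1520 CPM. The part of digestion in this fold was not tested. Over FB the SMC level was 2.28-fold (1.94 to 2.67) at P1 and 2.63-fold (2.37 to 2.91) at P7. In the cells without a UMI of Fos, Egr1 or Hspa1a, which left 10 and 15 SMC, it was 2.78-fold at P1 and 1.32-fold at P7. EC and PC could not be separated at either age. In these 5 classes the log2 ratio of P1 over P7 lay between -0.10 and 0.16. The value of 0.16 in FB was -0.34 in the 137 and 201 FB without a UMI of Fos, Egr1 or Hspa1a. An antisense gene, Gm15283, overlaps Hif1a and had 365 UMIs of its own in both libraries together.

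Hif1a differed more between the ages inside EC subsets. In Npr3+ cells it was 79.7 CPM (69.7 to 90.7) at P1 and 135 CPM (110 to 164) at P7, a log2 ratio of -0.76 (-1.10 to -0.41). In Gja5+ cells it was 52.4 CPM (33.2 to 78.6) and 90.6 CPM (74.2 to 109), with a P1 over P7 log2 ratio of -0.77 (-1.51 to -0.13) resting on 23 UMIs at P1. Aplnr+ and Car4+ cells had log2 ratios of -0.18 (-0.38 to 0.01) and -0.10 (-0.49 to 0.29).

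The balance of the 2 main alpha subunits was read as the percentage of Epas1 among Epas1 and Hif1a UMIs, a share meant for comparing classes, since the 2 transcripts may be captured unequally. It was 72.8% and 70.8% in EC at P1 and P7, 66.5% and 69.5% in PC, 26.2% and 32.3% in FB, and 3.97% and 3.92% in macrophage-like cells. In SMC it was 44.0% (38.5 to 49.7) at P1 and 57.7% (54.7 to 60.7) at P7. In Npr3+ EC it went the other way, from 65.1% (61.4 to 68.8) to 49.3% (42.2 to 56.4). Gja5+ cells held 91.2% and 88.6%.

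**Figure D3:**
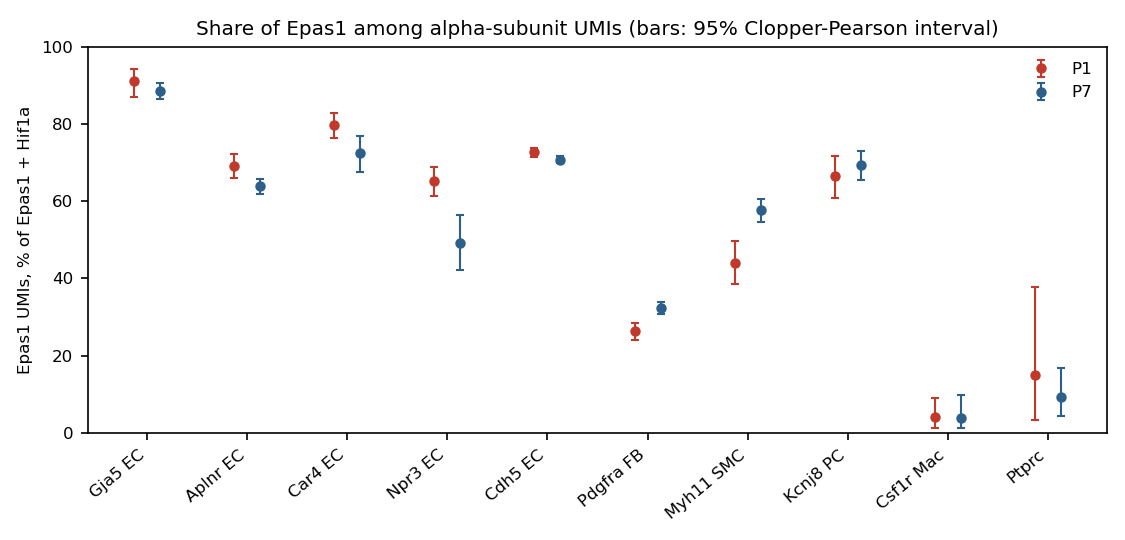
Percentage of Epas1 among Epas1 and Hif1a UMIs (y axis) in 4 endothelial subsets and 6 classes (x axis) at P1 (red) and P7 (blue), with exact 95% Clopper-Pearson intervals. The share was 91.2% and 88.6% in Gja5+ cells, 26.2% and 32.3% in FB and 3.97% and 3.92% in macrophage-like cells.

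Hif3a, the alpha subunit with variants that can restrain HIF-1 activity, was scarce, with 444 UMIs in all retained cells at P1 and 138 at P7. SMC had 39.0 CPM (29.2 to 51.0) at P1 and 11.4 CPM (8.07 to 15.7) at P7. PC had 13.9 (8.52 to 21.5) and 3.76 (1.72 to 7.14), FB 8.25 (7.07 to 9.57) and 1.29 (0.963 to 1.68), and EC 3.83 (3.01 to 4.82) and 0.180 (0.0585 to 0.420). Macrophage-like cells had 2 UMIs at P1 and 0 at P7, and a count of 0 there allows up to 1.503 CPM. SMC exceeded FB by 4.73-fold (3.41 to 6.46) at P1 and 8.87-fold (5.69 to 13.7) at P7. The P1 value was above the P7 interval in each of these 4 classes.

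As log2 ratios of P1 over P7, Hif3a stood at 4.29 (3.12 to 6.08) in EC, from 73 and 5 UMIs. It was 2.67 (2.23 to 3.15) in FB, from 175 and 53 UMIs, 1.77 (1.15 to 2.42) in SMC and 1.85 (0.69 to 3.21) in PC. The PC ratio rested on 20 and 9 UMIs, and the part of lung-gene cells in it is not given. In EC the P1 UMIs lay mainly in Npr3+ cells among the 4 subsets, with 31 UMIs and 10.8 CPM (7.33 to 15.3), against 2.34 CPM (1.01 to 4.61) in Aplnr+ cells. Within Npr3+ cells the log2 ratio was 2.47 (0.445 to 8.38), from 31 and 1 UMIs. These were 212 of 1675 EC at P1 and 60 of 3274 at P7, and the part of this shift in the EC ratio was not tested. Aplnr+ cells had 8 UMIs at P1 and 0 at P7, which allows up to 0.297 CPM when 3 counts are taken as the floor of these cells. The P1 level was 7.88 times that floor, and the counting interval of the ratio began at 5.04-fold. Without cells holding lung-gene UMIs the log2 ratios were 4.29 in EC, 2.59 in FB and 1.64 in SMC. Without cells holding a UMI of Fos, Egr1 or Hspa1a, which left 10 and 15 SMC, the SMC value was 0.96, and as a mean of per-cell CPM it was 2.58. In FB 16.8% of cells at P1 and 2.28% at P7 held a lung-gene UMI.

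The other 2-fold member was Egln3, whose enzyme (PHD3) is the most strongly induced of the 3 hydroxylases in many hypoxic cell types. FB had 30.9 CPM (28.6 to 33.4) at P1 and 9.56 CPM (8.64 to 10.6) at P7, a log2 ratio of 1.69 (1.51 to 1.88). SMC had 14.7 (8.99 to 22.7) and 4.20 (2.30 to 7.05), a log2 ratio of 1.79 (0.75 to 2.91) from 20 and 14 UMIs. PC had 25.8 CPM (18.2 to 35.6) and 25.9 CPM (19.9 to 33.2), with a log2 ratio of 0.00 (-0.63 to 0.60). EC had 8.14 (6.91 to 9.53) and 6.30 (5.40 to 7.31), a log2 ratio of 0.37 (0.05 to 0.69) that was 0.13 (-0.24 to 0.48) without cells holding lung-gene UMIs. At P1 FB and PC could not be separated (1.20-fold, 0.861 to 1.72), whereas at P7 PC exceeded FB by 2.71-fold (2.04 to 3.55).

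Egln3 was detected in 26.9% (24.6 to 29.4) of FB at P1 and 11.8% (10.5 to 13.1) at P7, with medians of 14756 and 16626 UMIs per cell. After thinning the shares were 5.76% (4.55 to 7.16) and 1.94% (1.43 to 2.57), against 2.56% and 2.45% in Ptprc-gated cells. The thinned P7 share in FB was thus not above theirs, and EC shares, 1.72% and 0.817%, were lower as point values. The Ptprc-gated shares rested on 78 and 245 cells, and whether EC lay below them beyond counting error was not tested. Ptprc-gated cells themselves had 14.8 and 8.07 CPM of Egln3, from 7 and 14 UMIs, against 2.56 and 1.00 CPM in macrophage-like cells. They may thus not be a background free of Egln3, and these shares cannot place FB or EC at background. The FB log2 ratio was 1.68 without cells holding lung-gene UMIs and 1.82 without cells holding a UMI of Fos, Egr1 or Hspa1a, which kept 137 and 201 FB. The summed level of 8 digestion-response genes in FB was 4162 CPM at P1 and 3729 CPM at P7. In SMC without lung-gene cells the Egln3 log2 ratio was 1.02.

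**Figure D4:**
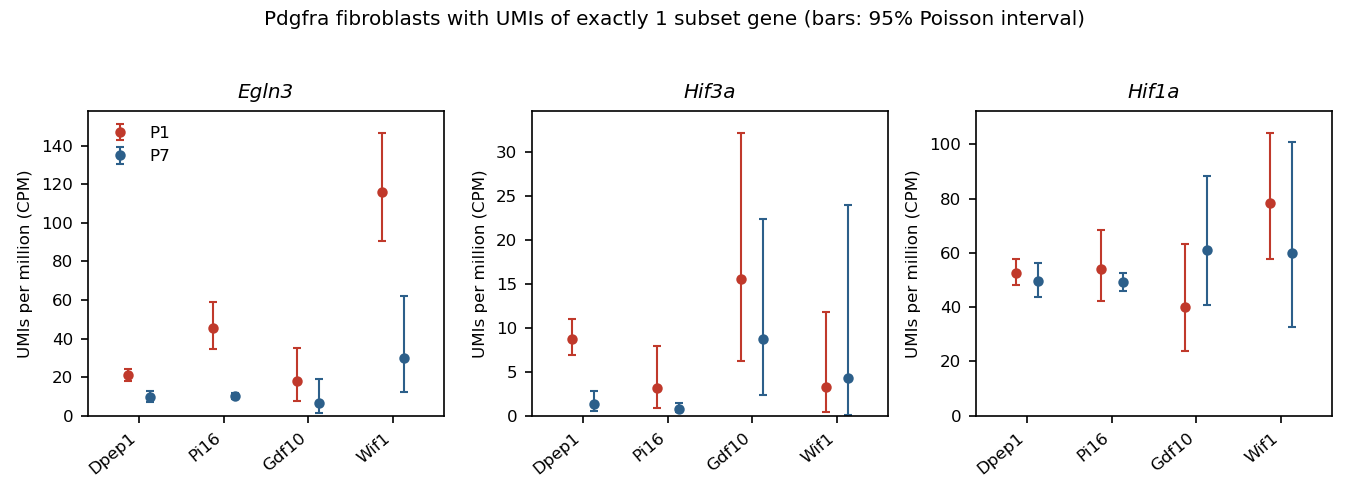
Levels of Egln3, Hif3a and Hif1a (y axes, CPM) in Pdgfra+ fibroblast-like cells with UMIs of exactly 1 of Dpep1, Pi16, Gdf10 or Wif1 (x axis) at P1 (red) and P7 (blue), with exact 95% Poisson intervals. Egln3 reached 116 CPM in Wif1+ cells at P1 and was higher at P1 than at P7 in Dpep1+, Pi16+ and Wif1+ cells with intervals apart.

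Fibroblast subsets, chosen after the FB values had been seen, were gated on 1 gene each: Dpep1, a membrane dipeptidase (524 cells at P1 and 317 at P7), Pi16, known from adventitial-type fibroblasts (67 and 893), Wif1, a secreted Wnt inhibitor (43 and 16), and Gdf10, a BMP-family ligand (36 and 36). Egln3 was 116 CPM (90.6 to 146) in Wif1+ cells at P1 and 30.0 CPM (12.1 to 61.8) at P7. It was 45.6 (34.7 to 58.9) and 10.2 (8.68 to 11.9) in Pi16+ cells, 21.0 (18.02 to 24.2) and 9.73 (7.20 to 12.9) in Dpep1+ cells, and 17.8 (7.68 to 35.1) and 6.56 (1.35 to 19.2) in Gdf10+ cells. The log2 ratios were 1.86 (0.83 to 3.32), 2.17 (1.71 to 2.60), 1.10 (0.65 to 1.59) and 1.31 (-0.62 to 3.99) in that order. At P1 Wif1+ cells exceeded Pi16+ cells by 2.54-fold (1.77 to 3.65), and Pi16+ cells exceeded Dpep1+ cells by 2.18-fold (1.59 to 2.94). Digestion-response genes summed to 7460, 4751, 3435 and 3822 CPM in Wif1+, Pi16+, Dpep1+ and Gdf10+ cells at P1. In that order, 18.6%, 11.9%, 17.4% and 19.4% held a lung-gene UMI at P1, and 6.25%, 1.79%, 1.58% and 0% at P7. The part of either was not tested, and no held-back markers were checked for these subsets. For Hif3a at P1, Gdf10+ cells had 15.6 CPM (6.26 to 32.1), Dpep1+ cells 8.75 (6.90 to 11.0), Wif1+ cells 3.27 (0.396 to 11.8) from 2 UMIs and Pi16+ cells 3.09 (0.843 to 7.92). Neighbours in that order could not be separated, while Gdf10+ exceeded Pi16+ cells by 5.03-fold (1.28 to 23.4).

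Egln1 encodes PHD2, the main hydroxylase of HIF-1α in most cells. EC had 30.1 CPM (27.6 to 32.6) at P1 and 45.5 CPM (43.0 to 48.1) at P7, a log2 ratio of -0.60 (-0.74 to -0.46). Aplnr+ cells had 25.7 CPM (20.6 to 31.7) and 49.0 CPM (44.8 to 53.5), with a P1 over P7 log2 ratio of -0.92 (-1.27 to -0.60), while Car4+ cells had 31.5 and 32.6 CPM (-0.05, -0.67 to 0.58). PC had 12.6 CPM (7.44 to 19.8) and 23.4 CPM (17.7 to 30.4), with a P1 over P7 log2 ratio of -0.87 (-1.75 to -0.11). FB had 20.4 and 22.4 CPM (-0.13, -0.30 to 0.03) and SMC 28.7 and 21.6 CPM (0.42, -0.19 to 0.99). EC exceeded FB by 1.47-fold (1.30 to 1.67) at P1 and 2.03-fold (1.86 to 2.21) at P7. Some smaller groups passed 2-fold towards P7. The Egln1 log2 ratio was -1.156 (-2.194 to -0.173) in Upk3b+ epicardial-like cells, from 16 and 22 UMIs. In lymphatic-type EC it was -1.315 (-2.449 to -0.285), from 13 and 22 UMIs. Among FB subsets it was -1.56 (-3.252 to -0.257) in Gdf10+ cells, from 6 and 19 UMIs. Wif1+ cells went the other way (1.144, -0.707 to 4.596), from 14 and 2 UMIs.

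The size of the EC difference in Egln1 depended on how cells were weighted. At an equal depth of 2000 UMIs per cell the log2 ratio was -0.27, and the shares of cells with a UMI, 7.31% (6.07 to 8.71) and 8.37% (7.41 to 9.41), overlapped. As a mean of per-cell CPM it was -0.40. In Aplnr+ cells the thinned shares were 7.42% (4.53 to 11.35) and 8.84% (7.21 to 10.7).

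Egln2, encoding PHD1, lay between 52.0 and 75.8 CPM at P1 and between 57.6 and 68.2 CPM at P7 over the 5 classes. Its log2 ratio ran from -0.34 in macrophage-like cells to 0.15 in EC. As a share of the UMIs of the 3 Egln genes within a class, Egln3 made up 26.6% (24.9 to 28.4) in FB at P1 and 10.4% (9.44 to 11.4) at P7, and 24.7% and 23.4% in PC. In EC Egln1 made up 26.4% (24.5 to 28.3) at P1 and 37.9% (36.3 to 39.6) at P7. In macrophage-like cells Egln3 made up 3.61% and 1.16%. Upk3b+ epicardial-like cells (52 and 31) had 43.3 CPM (29.8 to 60.8) of Egln3 at P1 and 34.3 CPM (19.6 to 55.7) at P7, and 57.7% and 16.1% of them held a lung-gene UMI.

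Arnt, Vhl and Hif1an stayed within 2-fold between the ages in the 5 classes. Arnt lay between 19.9 and 32.6 CPM at P1 and between 22.1 and 35.0 CPM at P7 over the 5 classes. Its log2 ratios there ran from -0.29 to 0.28, with no interval away from 0. In Pi16+ FB the Arnt log2 ratio was -1.025 (-1.742 to -0.444), from 22 and 563 UMIs. The intervals of the other FB subsets included 0. Vhl was 12.7 and 12.4 CPM in EC and 15.3 and 13.5 CPM in FB. In PC Vhl was 21.6 CPM (14.7 to 30.7) and 10.9 CPM (7.10 to 15.9), with a P1 over P7 log2 ratio of 0.99 (0.19 to 1.80) from 31 and 26 UMIs. Without Fos, Egr1 or Hspa1a cells, which kept 32 and 62 PC, it was 0.08. Hif1an was 26.3 CPM (24.2 to 28.6) and 19.8 CPM (18.5 to 21.2) in FB, a log2 ratio of 0.41 (0.25 to 0.57), and 20.0 and 17.1 CPM in EC (0.23, 0.03 to 0.42).

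**Figure D5:**
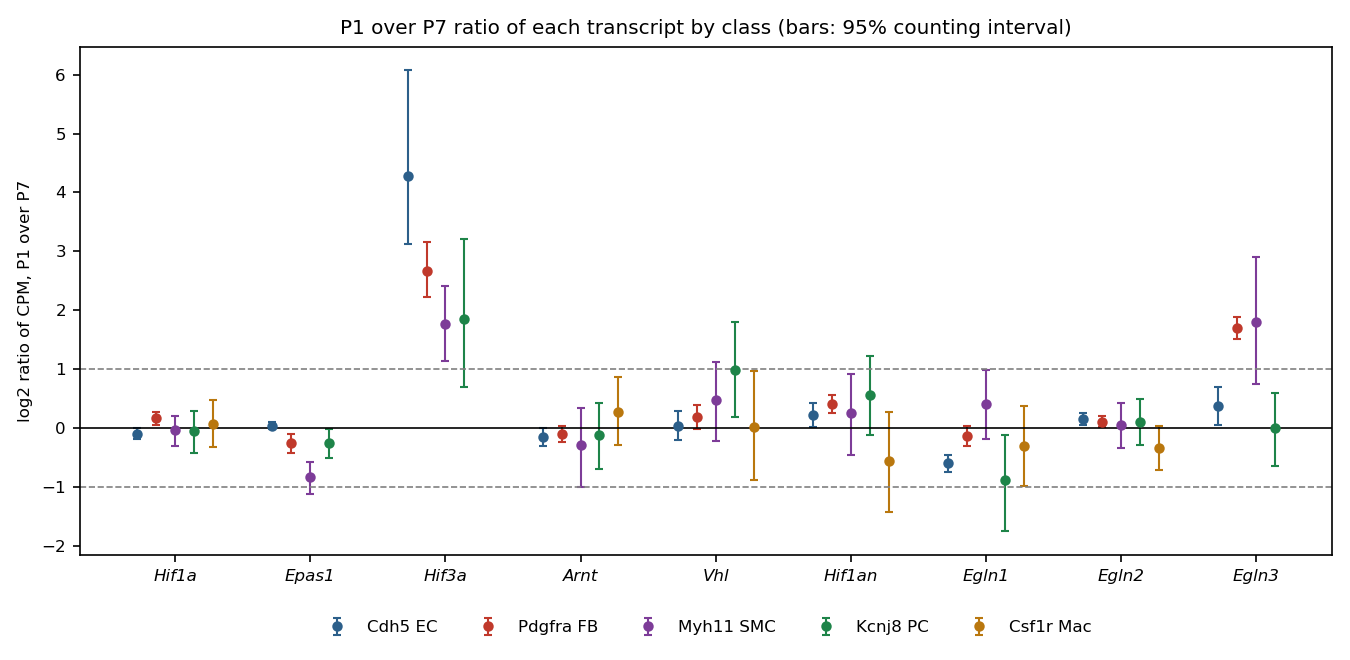
Log2 ratio of CPM, P1 over P7 (y axis), of each transcript (x axis) in 5 gated classes (colours) with at least 20 UMIs in both libraries together. Bars are 95% counting intervals and dashed lines mark 2-fold. Hif3a lay above 2-fold in EC, FB, SMC and PC and Egln3 in FB and SMC. No pair of these 5 classes lay beyond 2-fold towards P7. Smaller groups are not shown, and some of them passed 2-fold towards P7 for Egln1 or Arnt.

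A 2-fold difference with at least 20 UMIs in a class was used as a fixed size for counting. In EC, 1 of 9 members (Hif3a) was at least 2-fold higher at P1 and 0 at P7, against 5.81% and 3.58% of 13395 genes. In FB, 2 of 9 (Hif3a and Egln3) were higher at P1 and 0 at P7, against 7.07% and 4.02% of genes. SMC gave the same 2 members and 0, against 5.59% and 3.7%. PC gave Hif3a and 0, against 3.14% and 2.98%. Of the 6 members measured in macrophage-like cells, 0 passed in either direction, against 3.06% and 4.16%. The median log2 ratio of the members was 0.04 in EC, 0.16 in FB, 0.26 in SMC, 0.00 in PC and -0.14 in macrophage-like cells, beside -0.06, 0.04, 0.04, -0.02 and -0.06 for all genes counted. In Ptprc-gated cells, where 9.0% of genes were at least 2-fold higher at P1 and 27.8% at P7, Hif1an passed towards P7 from 9 and 75 UMIs. Without the 51 and 18 of these cells that met the S100a8 granulocyte gate it had 6 and 75 UMIs and a log2 ratio of -0.46 (-2.06 to 0.62).

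The wider pathway was followed in 4 gene lists. The shares of all genes 2-fold higher at P1 and P7 were 5.81% and 3.58% in EC and 7.07% and 4.02% in FB. They were 5.59% and 3.7% in SMC, 3.14% and 2.98% in PC and 3.06% and 4.16% in macrophage-like cells. Of 7 genes of the VHL ligase complex and alpha subunit turnover, 0 were 2-fold apart in these 5 classes, where 5 to 7 were measured. At these shares, a count of 0 among so few genes does not set a list apart from other genes. The next list held 8 genes for partners, coactivators and proteins that bind them. Of these, Arnt2 and Cited2 were 2-fold higher at P1 in EC, Arntl was higher at P7 in SMC, and 0 were 2-fold apart in FB, PC and macrophage-like cells. Among 12 other 2-oxoglutarate oxygenases, P4ha3, a collagen prolyl hydroxylase subunit, was 2-fold higher at P1 in EC, FB, SMC and PC. It had 42.9 CPM at P1 and 11.5 CPM at P7 in FB, a log2 ratio of 1.89 (1.73 to 2.06), and 8.51 and 1.081 CPM in EC, a log2 ratio of 2.96 (2.41 to 3.59). In SMC it had 64.1 and 21.0 CPM (1.61, 1.14 to 2.08). P4ha2 in SMC and Kdm6a in PC were also 2-fold higher at P1 and Kdm4b in PC at P7. Kdm6a is encoded on the X chromosome and the libraries differed in sex, whose part in its ratio was not tested. The genes with 2-fold differences that are named here without values were named after their values had been seen.

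HIF target genes at least 2-fold apart were found in both directions, and their counts are read against the shares of all genes. Of 49 targets, 47 were measured in EC, where 3 (Ak4, Edn1 and Angptl4) were 2-fold higher at P1 and 3 (Adm, Tfrc and Cxcr4) at P7, beside 5.81% and 3.58% of all genes. Adm, encoding the vasoactive peptide adrenomedullin, was 16.2 CPM at P1 and 56.0 CPM at P7, a log2 ratio of -1.79 (-1.97 to -1.61). Cxcr4, the receptor of CXCL12, was 8.35 and 28.8 CPM (-1.78, -2.04 to -1.54). In FB 3 of 47 (Car12, Stc2 and Hmox1) were higher at P1 and 2 (Ndrg1 and Bhlhe41) at P7, beside 7.07% and 4.02% of all genes. Stc2, a secreted glycoprotein, was 50.2 and 14.2 CPM in FB (1.82, 1.68 to 1.97), and Bhlhe41, a circadian repressor, 2.45 and 10.8 CPM (-2.13, -2.58 to -1.72).

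In SMC 4 of 39 targets (Bnip3, Flt1, Cxcl12 and Loxl2) were higher at P1 and 2 (Pfkl and Tfrc) at P7, beside 5.59% and 3.7%. Loxl2, a lysyl oxidase of the matrix, was 149.5 CPM at P1 and 62.8 CPM at P7 (1.25, 0.97 to 1.54), and Pfkl, a glycolytic kinase, 31.7 and 79.0 CPM (-1.31, -1.82 to -0.85). In PC 4 of 38 (Adm, Ddit4, Hmox1 and Cxcr4) were higher at P1 and 2 (Ankrd37 and Cxcl12) at P7, beside 3.14% and 2.98%. Ankrd37 was 6.28 and 23.4 CPM (-1.83, -3.10 to -0.87), the chemokine Cxcl12 33.5 and 114 CPM (-1.76, -2.24 to -1.32), and the coactivator Ep300 26.5 and 45.6 CPM (-0.77, -1.35 to -0.24). In macrophage-like cells 3 of 40 (Flt1, Angptl4 and Loxl2) were higher at P1 and 2 (Ndufa4l2 and Ddit4) at P7, beside 3.06% and 4.16%. There Hmox1, the haem-degrading enzyme, was 328 and 181 CPM (0.86, 0.68 to 1.04), Slc2a1, a glucose transporter, 21.8 and 12.0 CPM (0.84, 0.13 to 1.62) and the demethylase Kdm6a, encoded on the X chromosome, 25.2 and 12.5 CPM (0.99, 0.31 to 1.74). The median log2 ratio of the targets was 0.01 in EC, 0.01 in FB, -0.10 in SMC, -0.10 in PC and 0.16 in macrophage-like cells, beside -0.06, 0.04, 0.04, -0.02 and -0.06 for all genes.

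In Ptprc-gated cells 6, 7, 6 and 32 genes of the ligase, partner, oxygenase and target lists were measured. Of these, 0, 1, 0 and 10 were 2-fold higher at P1, beside 9.0% of all genes. At P7 1, 2, 3 and 2 were higher, beside 27.8%. Plin2 had 251 and 45.0 CPM there, Slc16a3 108 and 11.5 CPM and Slc2a3 139 and 28.8 CPM, in a gate whose P1 cells mostly carried granulocyte genes.

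Finally, the genes whose levels most resembled those of a member were found over 18 points, the 4 EC subsets and 5 other classes in each library, for members at least 4-fold apart between classes. Epas1 (301-fold between Gja5+ and macrophage-like cells) was most like Sh3glb2, Tmem47 and Asap2, each with a Pearson r of 0.97. Hif3a (59.1-fold) was most like Tceal3 (0.90), Stbd1 and 2310030G06Rik (0.89 each). Egln3 (14.5-fold) was most like Gnai3 (0.85), Fst (0.84) and Arsg (0.83). The points share 2 libraries and differ in depth, and these are the highest of 12261 genes compared, so r is a description.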

How the data were processed

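Live cells from P1 and P7 mouse hearts had been profiled as 1 droplet library per age. Per the submitters' processing notes, the authors used Cell Ranger 3.1.0 with the mm10 (GRCm38) genome and deposited UMI counts per gene and barcode, before the study's cell filters and without normalisation. Retained cells had 200 to 8000 genes and at most 20% mitochondrial UMIs. A class required at least 1 UMI of its gate gene and UMIs of at least 2 supporting markers. No doublet caller was run, and cells of several gates were left out. Counts were summed per class and scaled to CPM, with exact Poisson intervals for levels, Clopper-Pearson intervals for shares, and conditional binomial intervals for log2 ratios with 0.5 counts added. Droplet UMIs are taken as molecules, and intervals cover counting error. Retained UMIs totalled 59026295 at P1 and 97432007 at P7. Thinning to 2000 UMIs left out 574 and 727 cells.

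Members and lists were chosen with earlier results of these data known. 1 gene of the HIF target list is not reported here and was left out of its counts and medians. Pathway genes given with values are those with the 3 largest absolute log2 ratios per class, given 50 UMIs or more on the higher side. For similarity, log2(CPM + 10) of genes with at least 200 UMIs was correlated. Scripts were tested on simulated data. Positions follow GENCODE M21 and RefSeq, and software was python 3.11.15, numpy 2.4.6, scipy 1.17.1 and pandas 2.3.3. Alternatives changed the filters, gates, scaling, depth and cells.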

Additional observations from a re-analysis of the deposited data

Results flagged for a closer look

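The Hif1a ratio had opposite signs in the 2 largest classes. Its log2 ratio of P1 over P7 was 0.164 (0.061 to 0.266) in FB and -0.096 (-0.19 to -0.003) in EC. The difference between these 2 ratios was not tested. In FB without a UMI of Fos, Egr1 or Hspa1a (137 cells at P1 and 201 at P7) the ratio was -0.34. In EC without cells holding lung-gene UMIs it was -0.09 (-0.196 to 0.009), and the median of all genes in EC was -0.06.

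Egln3 was also present in cells that met no gate. Among those whose highest marker panel was the fibroblast one (58.1% of the 925 unassigned cells at P1 and 64.9% of 1029 at P7), Egln3 stood at 50.69 CPM (44.47 to 57.54, 239 UMIs) at P1 and 18.35 CPM (15.31 to 21.82, 128 UMIs) at P7. The limits that a count of 0 allows were 0.636 and 0.430 CPM. Of all unassigned cells, 21.0% at P1 and 2.04% at P7 held a lung-gene UMI. Their summed lung-gene level was 1878 and 2.82 CPM, and their median depth 3809 and 4081 UMIs. The part of lung-gene cells in these Egln3 levels was not tested. The unassigned cells entered no comparison above.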

How the results depend on the processing

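No paired analysis was possible because each age was 1 library. Of 584 member ratios recomputed in EC, FB, SMC, PC and macrophage-like cells under 13 alternatives, 566 stayed within the counting interval and 18 moved outside it. The sign differed in 57 of 629 ratios, with the later alternative included. For 3 of these the reported ratio had an interval that left out 0, all in FB without Fos, Egr1 or Hspa1a cells (Hif1a -0.34, Epas1 0.01 and Egln2 -0.05). Epas1 in EC, reported at 0.04 (-0.02 to 0.10), was -0.07 (-0.13 to -0.002) without lung-gene cells. The log2 ratio ranged from 1.59 to 1.75 for Egln3 and from 2.57 to 3.03 for Hif3a in FB, and from 4.01 to 5.77 for Hif3a in EC. Egln1 in EC moved to -0.265 at 2000 UMIs per cell and -0.399 as a mean of per-cell CPM, and Hif3a in SMC to 2.578 as that mean. At 2000 UMIs per cell the pairs of member and class at least 2-fold higher at P1 went from 6 to 3 and those at P7 from 0 to 1. The minimum of 20 UMIs was applied to the thinned counts there. Hif3a in EC, FB and SMC and Egln3 in FB and SMC kept log2 ratios of at least 1.018 under all 13 alternatives. The remaining pair, Hif3a in PC (20 and 9 UMIs), is not covered by this statement. At 2000 UMIs per cell the folds became 13.9 and 9.24 for Epas1 in EC over FB (P1 and P7), 2.13 and 5.27 in Gja5+ over Aplnr+ cells, and 1.88 and 2.24 for Hif1a in SMC over FB. With classes set by the highest panel score, Epas1 in EC over FB was 8.52 and 6.89 and Hif1a in SMC over FB at P1 was 1.89. As a mean of per-cell CPM, Epas1 in EC over FB at P1 was 12.4. Without Mki67 or Top2a cells it was 12.2 and 9.22, and Gja5+ over Aplnr+ was 2.51 at P1. Without lung-gene cells the latter was 3.93. An alternative chosen after seeing the data left out cells with Fos, Egr1 or Hspa1a UMIs. It kept 729 and 1637 EC, 137 and 201 FB, 10 and 15 SMC, 32 and 62 PC and 9 and 8 macrophage-like cells. This alternative moved 20 of 45 ratios outside the intervals from all cells, which make no allowance for the fewer cells left. It gave 0.962 for Hif3a in SMC, 8.27 for Epas1 in EC over FB and 3.56 in Gja5+ over Aplnr+ cells at P1, and 2.78 and 1.32 for Hif1a in SMC over FB. Most of the 40 pathway counts were 0, and a 0 that stayed 0 was taken as within 1.5-fold. On this basis 29 of 40 pathway counts stayed within 1.5-fold at a minimum of 1 UMI and 31 of 40 at 50. The cause of these shifts was not tested. Low counts limit several values, such as Hif3a in EC at P7 (5 UMIs) and Epas1 and Egln3 in macrophage-like cells (at most 6 UMIs).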
